A study of Homo sapiens with 10 samples.

Results

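The genes described here lie at the end of the long arm of human chromosome 11, around and beyond H2AX, the gene of the histone variant H2A.X. A list of 59 such genes was chosen on the difference in array signal between cells knocked out for H2A.X and parental cells, so that difference is given for them as a description, with no test. A probe set was annotated to 48 of the 59, out of 14884 genes measured in all. The other 11, STT3A, SLC37A4, SORL1, KMT2A, PHLDB1, CBL, TMPRSS13, NCAPD3, RPS25, DCPS and PAFAH1B2, had no probe set in the annotation used and have no value here. The study hybridised RNA of MCF10A to Affymetrix expression arrays; these cells are a human mammary epithelial line that grows without limit but forms no tumours. The knockout group (genotype H2A.X knockout) and the parental group (H2A.X WT) had 5 arrays each, numbered 1 to 5, and both were grown for 48 h in the same medium with horse serum, EGF, hydrocortisone, cholera toxin and insulin. The labels do not say whether the arrays of a group came from separate cultures or the knockout cells from 1 clone, so the errors given measure the spread between these arrays, which may be technical. H2AX has no value here, so the genotypes were not checked on the targeted gene.

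Genes that sit side by side on a chromosome usually have unrelated functions and separate promoters. They share the number of copies of the DNA segment that carries them, and RNA of many genes follows that number, though feedback on single genes can mask it. The genes around H2AX encode proteins of the secretory pathway, ubiquitin ligases, transcription factors, adhesion proteins and proteases, and several of them are under their own stress or cell cycle control. DNA copy number was not measured here. For scale, a signal cut to 1/2 is a log2 difference of -1 and a signal cut to 2/3 is -0.58.

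Most of the measured genes of the list were lower in knockout cells, by amounts that varied widely from gene to gene. The median difference of the 48, knockout minus parental, was -0.67 on the log2 scale, with quartiles of -1.05 and -0.19, against a median of 0.00 and quartiles of -0.15 and 0.14 over all 14884 genes. The lowest was HYOU1 at -2.64 and the highest UBASH3B at 0.19. In limma's moderated test with Benjamini-Hochberg adjustment over all genes, 35 of the 48 were called lower (72.9%) and 0 higher, and the same test called 19.0% of all genes lower and 15.3% higher. Every knockout array lay under every parental array in 34 of the 48, as in 16.0% of all genes. A called difference of -1 or below was found for 14 of the 48, as for 1.50% of all genes. Because this contrast chose the list, these counts describe it and support nothing further.

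Array signals of all 10 samples had medians between 4.26 and 4.35. On the second principal component, with 7.53% of the variance, knockout replicate 1 scored 20.2 and the other knockout arrays -9.47 to -2.52. Without it the median of the 48 was -0.68, and again 35 were called lower. Of the 8 listed markers of basal mammary epithelium, 3 were measured, KRT5, KRT14 and EGFR. All 3 were above the median signal of all genes, with group means whose median was 10.9 in knockout and 9.57 in parental arrays. The summed log2 signal of the 2 fibroblast markers measured of 7 listed was 8.9 to 9.3 in knockout and 6.9 to 7.6 in parental arrays, and both were under the median signal. Of the luminal markers, all 7 of 7 listed were measured, 3 above the median signal (GATA3, KRT8 and KRT18), with sums of 38.6 to 39.7 in knockout and 40.3 to 41.7 in parental arrays. The endothelial markers, 3 of 5 measured, summed to at least 13.0 in each knockout and at most 12.1 in each parental array. Only KDR of these 3 was above the median signal, and their median difference was 0.09. The immune markers, 3 of 6 measured, summed to 18.8 to 19.3 in knockout and 19.3 to 19.6 in parental arrays. In the limma test 3 basal, 1 fibroblast and 1 endothelial marker were called higher and 0 lower. For luminal markers 3 were called lower and 0 higher, and for immune markers 2 lower and 1 higher. The same test called 19.0% of all genes lower and 15.3% higher. The part of these markers in the results was not tested, and in RNA of whole cultures fewer cells expressing a gene and less RNA per cell cannot be told apart.

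HYOU1, an endoplasmic reticulum chaperone of the heat shock 70 family that is induced when unfolded proteins accumulate, differed most of the listed genes. Its promoter, taken from RefSeq (GRCh38.p14) as the 250 bases before and 50 bases after the transcription start, is shown because it holds 2 copies of a known stress motif. The capitals mark the endoplasmic reticulum stress element II, read on the opposite strand as the letters ATTGG, any 1 base, then CCACG.

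HYOU1 promoter, chr11:119057156-119057455, minus strand: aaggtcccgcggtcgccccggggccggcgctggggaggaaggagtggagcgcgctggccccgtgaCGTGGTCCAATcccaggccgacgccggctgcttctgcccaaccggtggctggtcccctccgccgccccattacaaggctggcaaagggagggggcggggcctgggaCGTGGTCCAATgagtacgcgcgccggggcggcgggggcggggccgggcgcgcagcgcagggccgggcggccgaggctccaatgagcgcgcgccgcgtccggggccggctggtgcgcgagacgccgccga

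The matches end 174 and 68 bases before the start site. This motif was chosen after the sequence was seen. Of 35116 RefSeq promoter windows of this length searched on both strands, 19 (0.0541%) held it, and 1 window, that of HYOU1, held it more than once. Promoter windows were available for 43 of the 59 listed genes, and HYOU1 was the only one of these 43 with a match. The longer stress element, CCAAT and CCACG with 9 bases between them, was found in 0 of the 43 genes and in 0.0769% of all windows. The CHOP-ATF4 composite element, TGATGNAAT, was found in 0 of the 43 and in 0.991% of all windows. A match is a run of letters and does not show that a factor binds there.

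Along the chromosome the lower signals began close to the start of the list, though not exactly at it. Directly before ZPR1, the first listed gene, lies BUD13, which was lower (-0.68), and before it CADM1 and LINC00900, both dim and near 0 (0.02 and 0.04). The next genes toward the centromere, RBM7 (0.27), NNMT (0.51), ZBTB16 (0.65) and USP28 (0.53), were higher in knockout arrays. Among all 7442 genes whose mean signal exceeded the median of all gene means (5.49), 31.5% were called lower and 24.1% higher. Of the first 10 such genes of the run, 9 were called lower and 0 higher, with a median of -0.66. Of the 10 such genes just before the run, 8 were called higher and 1, BUD13, lower, with a median of 0.52. Most of the first 10 genes of the run are listed genes, chosen on this contrast, and the list also sets where the run starts. This step, like the running median within the run, is therefore in part built in. From ZPR1 to THYN1, the last listed gene, 119 genes were measured in RefSeq order, and 1 measured gene, the dim B3GAT1-DT (-0.25), lies beyond. The running median over 21 genes above the median signal lay between -0.79 and -0.31 where the run has one. Its window is centred, so the last genes of the arm have no value. Elsewhere on chromosome 11 it lay between -0.24 and 0.54.

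**Figure D1:**
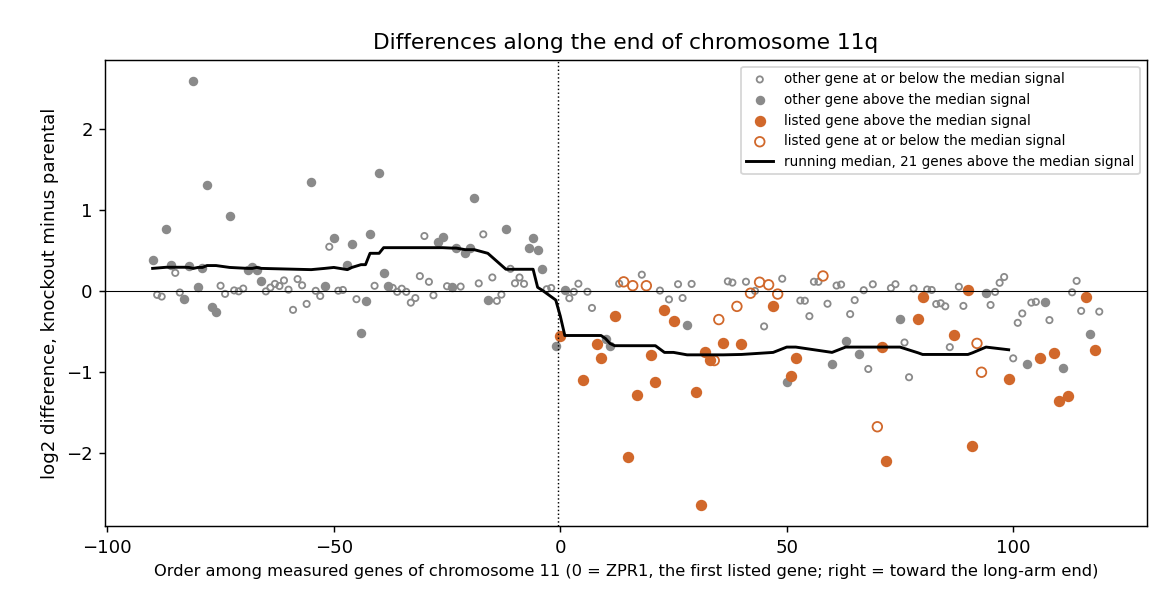
log2 difference, knockout minus parental, of measured chromosome 11 genes in RefSeq order, from 90 genes before ZPR1 (position 0) to the end of the long arm. Filled points are genes above the median signal, open points the dimmer ones and orange the listed genes. The line is a running median over 21 genes above the median signal. It lies between -0.79 and -0.31 in the part of the run it covers, and stops before the last genes of the arm.

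The listed genes are not the whole run. Of its 119 measured genes, 71 were not listed, and their median was -0.11. Of these 71, 21 were called lower (29.6%) and 0 higher, beside 19.0% lower and 15.3% higher of all genes. Most of them were dim: 57 of the 71 lay at or below the median signal and had a median of -0.01. Of these 57, 10 were called lower (17.5%) and 0 higher, beside 6.61% called lower of all genes at or below the median signal. The 14 unlisted genes above the median signal had a median of -0.60, with 11 called lower. The 34 listed genes above it had a median of -0.78, with 30 called lower. Of all genes above it, 31.5% were called lower. Taken over all 119 genes, the median of the run was -0.19. The choice of listed genes therefore moves the median. Of the 48 genes above the median signal in the whole run 41 were called lower. But 34 of these 48 are listed genes, chosen on this contrast, so that count also depends on the choice.

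**Figure D2:**
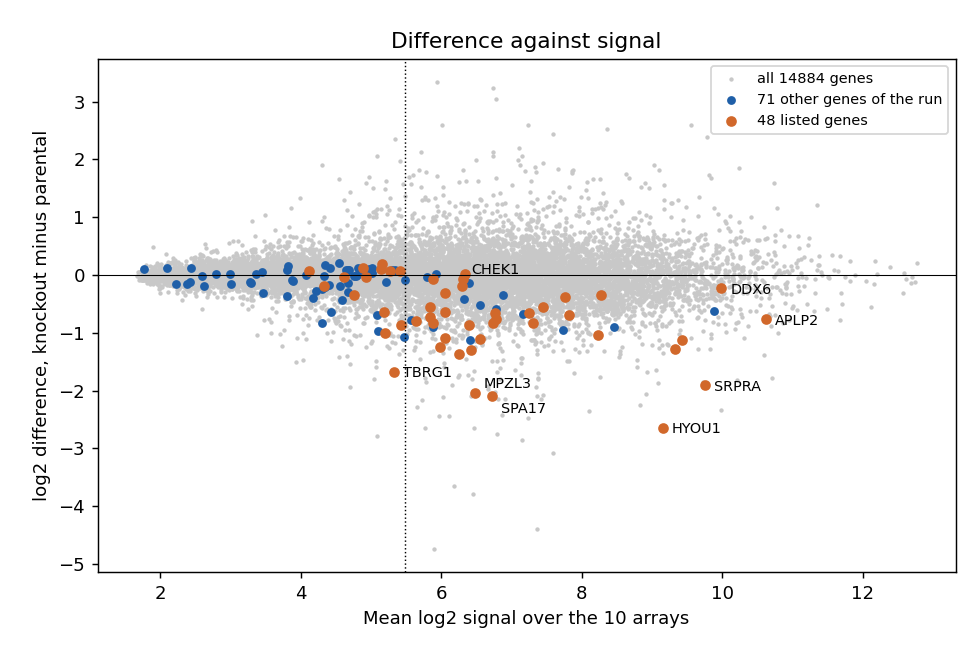
log2 difference, knockout minus parental, against mean log2 signal over the 10 arrays, for all 14884 genes (grey), the 71 other genes of the run (blue) and the 48 listed genes (orange). The dotted line is the median signal of all genes (5.49); to its left most genes of the run lie near 0, and to its right 2 of the 48 genes of the run are not below 0.

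The lower signal was seen in every knockout array. For the 34 listed genes above the median signal, the median of the signal minus the gene's parental mean was -0.90, -0.76, -0.73, -0.75 and -0.78 in knockout replicates 1 to 5, against -0.04, 0.00, -0.01, 0.06 and -0.02 in parental replicates 1 to 5. The groups did not overlap, but the list was chosen on the difference between these same arrays. Parental medians near 0 follow from subtracting the parental mean. Between 32 and 34 of the 34 genes lay below their parental mean in each knockout array. For all genes above the median signal the same measure lay between -0.07 and -0.02 in knockout arrays.

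**Figure D3:**
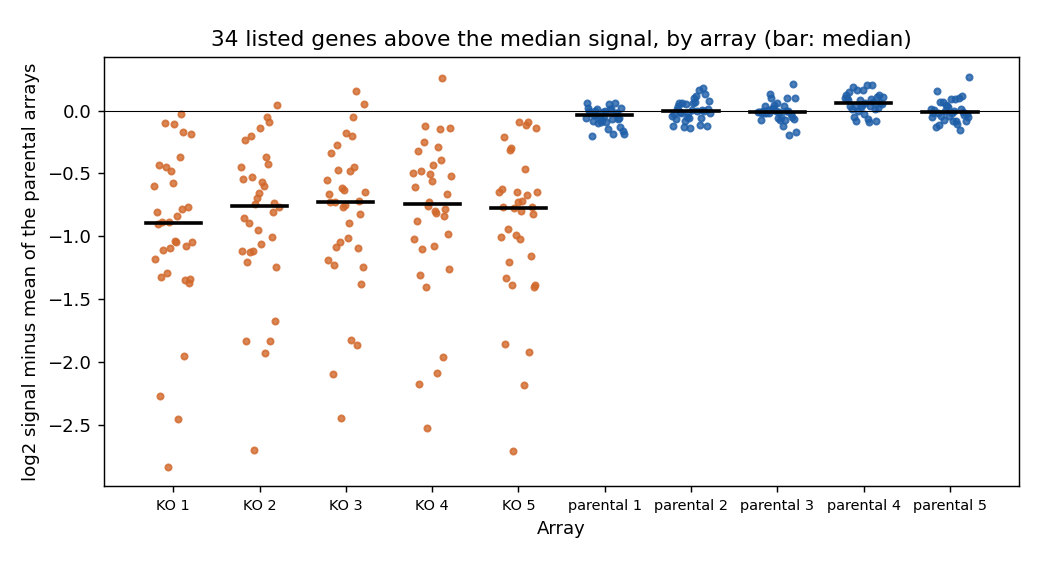
log2 signal of the 34 listed genes above the median signal in each array, minus the mean of the 5 parental arrays, with knockout arrays in orange and parental arrays in blue. Each point is a gene and the bar the median, which lies between -0.90 and -0.73 in the knockout arrays and between -0.04 and 0.06 in the parental ones.

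The differences were not even. The standard deviation of the 48 differences was 0.65 and that of the 34 brighter genes 0.61, several times the median standard error of a difference (0.08 and 0.07). Over all genes above the median signal the differences had a standard deviation of 0.48. The 95% interval of the difference held the median of the list in 12 of the 48 genes, lay wholly below it in 17 and wholly above it in 19. By size, 14 genes lay at or below -1, 14 between that and -0.58, 13 between -0.58 and 0, and 7 above 0. Of the 7 genes above 0, 6 lay at or below the median signal. Of the 34 brighter genes, 14 lay within 0.25 of their own median (-0.78). The interval held that median in 12 of these 34, lay below it in 12 and above it in 10, and 1 of the 34 was not below 0.

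Position within the run did not order the sizes. Pearson's r between place in the list and difference was -0.05 and Spearman's rho -0.08 over the 48 genes, which share the 10 arrays. The 17 genes on the centromere side of H2AX had a median of -0.76 and the 31 on the telomere side -0.66, or -0.81 for 14 and -0.75 for 20 genes when only those above the median signal were taken. In consecutive groups of 16 genes the medians were -0.72, -0.50 and -0.75. With only the genes above the median signal, 13, 7 and 14 of them, these medians were -0.83, -0.76 and -0.75. Neighbouring brighter genes differed from each other by a median of 0.52, and any 2 of them by a median of 0.53. HYOU1 (-2.64) and VPS11 (-0.76) follow each other in the list. The difference was larger at higher signal over the whole list (r = -0.43 and rho = -0.49 with the mean signal), and less so among the 34 brighter genes (r = -0.23, rho = -0.19).

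**Figure D4:**
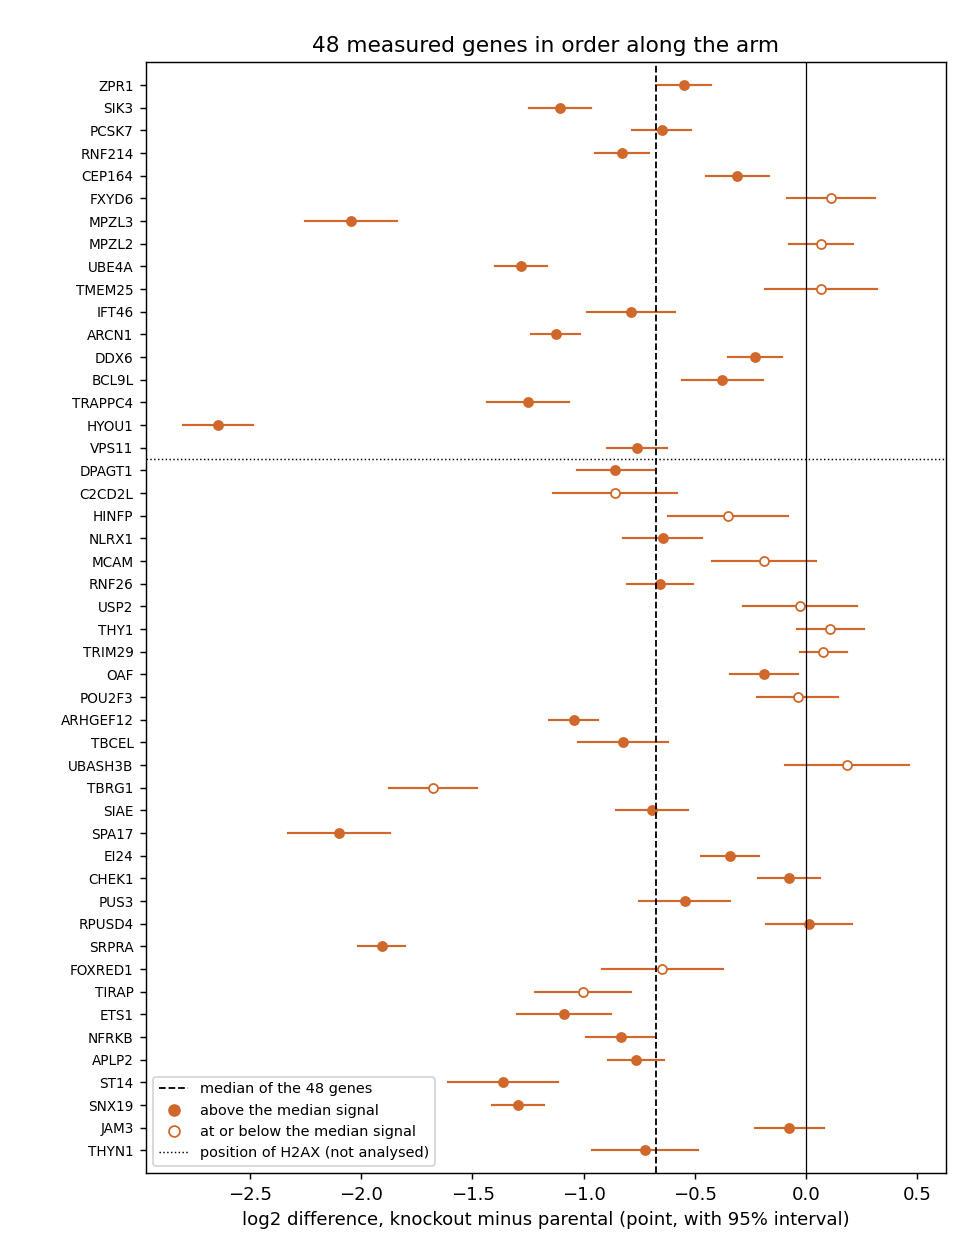
log2 difference, knockout minus parental, of the 48 measured genes from the centromere side (top) to the end of the arm (bottom), as points with limma's 95% interval. Filled points are above the median signal; the dashed line is the median of the 48 (-0.67), which 12 of the intervals hold, and the dotted line marks where H2AX lies.

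By role, the counts below describe a list chosen on this contrast, and stand beside 19.0% called lower of all genes and 31.5% of those above the median signal. The genes of the secretory pathway were all lower and had the lowest median of the groups by role, -1.19 for 6 measured genes. All 6 were above the median signal, while several other groups also held dimmer genes, and role was not separated from signal. HYOU1 had log2 signals of 7.64, 7.78, 8.03, 7.95 and 7.77 in the knockout arrays, against 10.42, 10.54, 10.50, 10.48 and 10.47 in the parental arrays. The groups were far apart, and the difference of -2.64 ± 0.07 (SE, n = 5 each) is a 6.26-fold lower signal. Its other, dimmer probe set gave -1.25. SRPRA, the receptor subunit that docks the signal recognition particle at the endoplasmic reticulum, had 8.76, 8.88, 8.85, 8.75 and 8.79 in knockout arrays, against 10.69, 10.72, 10.71, 10.73 and 10.73 in parental arrays. Both groups were tight, and the difference was -1.91 ± 0.05. TRAPPC4, a subunit of a complex that tethers vesicles, had 5.31, 5.49, 5.56, 5.20 and 5.22 in knockout arrays, against 6.51, 6.53, 6.71, 6.77 and 6.54 in parental arrays. ARCN1, the delta subunit of the COPI vesicle coat, had 8.88, 8.86, 8.90, 8.89 and 8.79 in knockout arrays, against 9.98, 9.97, 10.00, 9.94 and 10.06 in parental arrays. Neither gene's groups overlapped, with differences of -1.25 ± 0.08 and -1.13 ± 0.05. DPAGT1, which makes the first intermediate of N-linked glycans and is the nearest listed gene on the telomere side of H2AX, had 5.74, 6.13, 6.06, 6.11 and 5.84 in knockout arrays, against 6.76, 6.81, 6.87, 6.86 and 6.87 in parental arrays, a difference of -0.86 ± 0.08. EI24, a membrane protein of the endoplasmic reticulum first found as a p53-induced gene, differed least in this group, at -0.34 ± 0.06.

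In the lists of genes encoded elsewhere that work with these proteins, more fell than rose. The 8 measured subunits of the oligosaccharyltransferase and translocon, partners of the unmeasured STT3A, all fell, from SEC61B at -0.96 (limma, adjusted p = 7.16e-08), SEC61A1 at -0.78 and OSTC at -0.75 to DAD1 at -0.19. Of 6 signal recognition particle genes 5 fell, with SRP19 at -1.11 and SRP54 at -0.81, and SRP68 rose by 0.54 (limma, adjusted p = 1.92e-06). The 3 measured chaperone and related genes of the unfolded protein response, SDF2L1 (-0.81), CRELD2 (-0.75) and MANF (-0.71), fell, with less change than HYOU1. Of 4 genes of the early N-glycan steps DOLK (-0.64), ALG13 (-0.49) and ALG14 (-0.32) fell, and DPM3 was at 0.05. None of the 8 coatomer genes that partner ARCN1 was measured. Over all lists of partners, leaving out BACE1, which lies in the run itself, 32 of 68 measured genes fell and 13 rose, with a median of -0.15. Of the 64 above the median signal 32 fell and 12 rose, where 31.5% of all such genes were called lower and 24.1% higher. The differences of SRPRA and HYOU1 were below those of each partner measured in their own lists, without a test of that contrast. Only 6 of 7 partners of SRPRA and 3 of 10 of HYOU1 were measured. Both genes are among the 10 lowest of a list chosen on this difference, so the comparison supports nothing further.

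Endosome and lysosome genes were lower as well. SNX19, a sorting nexin, had 5.74, 5.84, 5.84, 5.82 and 5.69 in knockout arrays, against 7.10, 7.09, 7.01, 7.14 and 7.06 in parental arrays. VPS11, a core subunit of the HOPS and CORVET tethering complexes and the nearest measured gene of the list on the centromere side of H2AX, had 6.28, 6.42, 6.55, 6.40 and 6.38 in knockout arrays, against 7.08, 7.11, 7.18, 7.25 and 7.21 in parental arrays. The groups of both genes were separate, with differences of -1.30 ± 0.05 and -0.76 ± 0.06. SIAE, a sialic acid esterase, was at -0.69 ± 0.07. Of 5 measured partners of VPS11, VPS39 (-0.34) and VPS18 (-0.29) fell and VPS41 rose by 0.32 (limma, adjusted p = 0.000732). All 5 were above the median signal, where 31.5% of all genes were called lower and 24.1% higher.

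**Figure D5:**
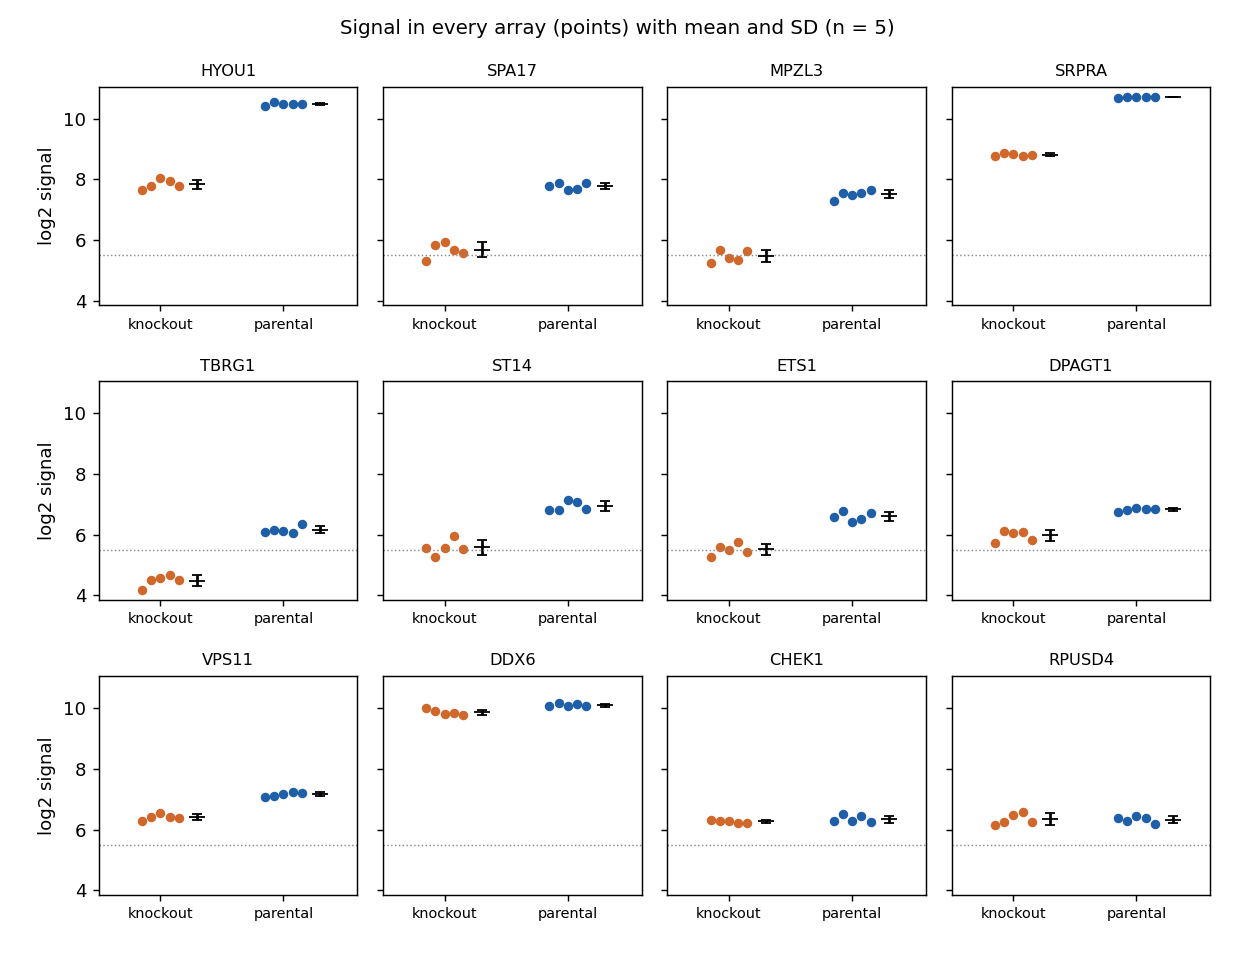
log2 signal of 12 listed genes in every array, knockout (orange) left of parental (blue), with mean and SD (n = 5 each) beside the points; the dotted line is the median signal of all genes. HYOU1, SPA17, MPZL3 and SRPRA show the widest gaps, DDX6 a small one, and the groups of CHEK1 and RPUSD4 overlap.

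Transcription and chromatin genes ranged from -1.68 to -0.04, with 6 of 7 called lower (19.0% of all genes). TBRG1, a growth regulator that acts with p53, had 4.18, 4.50, 4.57, 4.68 and 4.52 in knockout arrays, against 6.10, 6.17, 6.13, 6.07 and 6.36 in parental arrays. Its groups were wide apart, at -1.68 ± 0.09, with the knockout signal below the median of all genes. ETS1, the founding ETS transcription factor, had 5.26, 5.60, 5.51, 5.76 and 5.44 in knockout arrays, against 6.58, 6.78, 6.41, 6.52 and 6.72 in parental arrays. Its groups were separate, at -1.09 ± 0.10. NFRKB, a subunit of the INO80 chromatin remodeller, was at -0.83 ± 0.07. ZPR1, a zinc finger protein and the first of the list, had 7.13, 7.28, 7.18, 7.23 and 7.09 in knockout arrays, against 7.67, 7.69, 7.72, 7.83 and 7.75 in parental arrays, a difference of -0.55 ± 0.06. BCL9L, a coactivator of beta-catenin, was at -0.38 ± 0.08, its groups overlapped, and its other probe set gave 0.12. HINFP, a transcription factor of histone genes, had 4.38, 4.58, 4.61, 4.96 and 4.38 in knockout arrays, against 4.81, 5.06, 5.19, 4.97 and 4.63 in parental arrays. These dim signals overlapped, with a difference of -0.35 ± 0.12. POU2F3, a factor of tuft and epidermal cells, was dim in both groups and at -0.04 ± 0.08.

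Among genes of ubiquitin and kinase signalling, 6 of 9 were called lower (19.0% of all genes). UBE4A, a U-box ubiquitin ligase, had 8.64, 8.76, 8.73, 8.65 and 8.63 in knockout arrays, against 9.88, 10.02, 10.00, 9.98 and 9.95 in parental arrays, and the difference was -1.28 ± 0.05. SIK3, a salt-inducible kinase, was at -1.10 ± 0.06 and TIRAP, an adaptor of toll-like receptors, had a 95% interval of -1.22 to -0.79, though the other probe sets of TIRAP gave -0.74 and -0.10. The RING finger genes RNF214 and RNF26 were at -0.83 ± 0.06 and -0.66 ± 0.07, and NLRX1, a mitochondrial innate immune regulator, at -0.64 ± 0.08. For RNF26 a dimmer probe set gave -0.19. UBASH3B, a phosphatase that binds CBL, had 5.19, 5.12, 5.05, 5.69 and 5.23 in knockout arrays, against 5.43, 4.97, 4.84, 4.98 and 5.12 in parental arrays. TRIM29 had 5.28, 5.28, 5.35, 5.34 and 5.33 in knockout arrays, against 5.26, 5.21, 5.26, 5.29 and 5.18 in parental arrays. The groups of both overlapped under the median signal, at 0.19 ± 0.13 and 0.08 ± 0.05, and USP2, a deubiquitinase, was equally dim at -0.03 ± 0.12. In the list around the unmeasured CBL, SH3KBP1, a CBL-binding adaptor, fell by 1.23 (limma, adjusted p = 3.83e-07) and EGFR, a receptor that CBL marks for breakdown, rose by 0.69.

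Surface proteins and proteases were divided, with 4 of 11 called lower (36.4%), beside 19.0% of all genes and 31.5% of those above the median signal. Their median was -0.19, and the others did not pass. MPZL3, an immunoglobulin-like adhesion protein, had 5.23, 5.67, 5.41, 5.33 and 5.65 in knockout arrays, against 7.30, 7.54, 7.49, 7.54 and 7.66 in parental arrays, a 4.14-fold lower signal. MPZL2, its relative and the next measured gene of the list, had 5.29, 5.55, 5.49, 5.51 and 5.43 in knockout arrays, against 5.40, 5.51, 5.44, 5.30 and 5.29 in parental arrays. The pair thus differed from each other, at -2.05 ± 0.10 and 0.07 ± 0.07, with MPZL2 under the median signal in both groups. ST14, which encodes the epithelial membrane protease matriptase, had 5.57, 5.27, 5.57, 5.96 and 5.53 in knockout arrays, against 6.82, 6.82, 7.15, 7.06 and 6.86 in parental arrays, and was at -1.36 ± 0.11. APLP2, of the amyloid precursor family, was the brightest gene of the list, at 10.25 ± 0.07 in knockout and 11.01 ± 0.08 in parental arrays (SD, n = 5 each), a difference of -0.76. The related APP, on another chromosome, rose by 0.26 (limma, adjusted p = 0.00102). The proprotein convertase PCSK7 was at -0.65 ± 0.06. OAF was at -0.19 ± 0.07 with separate groups but did not pass the test, and the junction protein gene JAM3 was at -0.07 ± 0.07.

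THY1, the cell surface glycoprotein CD90, had 5.26, 5.37, 5.12, 5.21 and 5.02 in knockout arrays, against 5.04, 5.05, 5.05, 5.16 and 5.13 in parental arrays. FXYD6, a regulator of the sodium pump, had 5.29, 4.97, 4.82, 4.89 and 4.76 in knockout arrays, against 4.90, 4.91, 4.78, 4.82 and 4.75 in parental arrays. Both were dim, overlapped between groups and sat just above 0 (0.11 ± 0.07 and 0.11 ± 0.09). MCAM, an adhesion molecule of endothelium and melanoma, and TMEM25 were dimmer still, at -0.19 ± 0.11 and 0.07 ± 0.12.

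CHEK1, the checkpoint kinase that restrains the cell cycle when replication stalls, stood close to 0. It had 6.32, 6.29, 6.29, 6.20 and 6.23 in knockout arrays, against 6.27, 6.51, 6.27, 6.43 and 6.24 in parental arrays. The groups overlapped, and the difference was -0.08 ± 0.06 with a 95% interval of -0.22 to 0.06, well above the median of the list, at a signal above that of most genes. Of its 13 measured partners in the checkpoint, 5 rose and 2 fell, beside 15.3% called higher and 19.0% called lower of all genes. All of these partners but the dim CLSPN and CHEK2 were above the median signal, where 24.1% of all genes were called higher and 31.5% lower. CLSPN, the adaptor through which CHEK1 is activated, rose by 1.15 (limma, adjusted p = 1.34e-05), TIMELESS rose by 0.58 and ATRIP by 0.48, and RAD17 fell by 0.50. Both measured condensin genes, partners of the unmeasured NCAPD3, rose, SMC2 by 0.82 and SMC4 by 0.18, although SMC4 did not pass with the replicate number as a block.

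Genes of the cilium and cytoskeleton were called lower in 5 of 5 (19.0% of all genes). SPA17, a sperm protein also found in cilia, had 5.31, 5.84, 5.95, 5.68 and 5.58 in knockout arrays, against 7.78, 7.89, 7.64, 7.68 and 7.86 in parental arrays. Its groups were wide apart, and the difference of -2.10 ± 0.11 was the second lowest of the list. ARHGEF12 was at -1.04 ± 0.05, the tubulin cofactor relative TBCEL at -0.82 ± 0.09, IFT46 of the intraflagellar transport B complex at -0.79 ± 0.09, and CEP164, of the distal appendages of the centriole, at -0.31 ± 0.07. Of 11 measured partners of IFT46, 6 fell and 0 rose, among them IFT88 (-0.78), IFT20 (-0.78) and IFT57 (-0.69). Except for IFT27 these partners were above the median signal, where 31.5% of all genes were called lower and 24.1% higher.

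Of the 3 RNA genes measured, 2 were called lower (19.0% of all genes), with a median of -0.23. DDX6, a helicase of mRNA decay and storage granules, had 10.01, 9.90, 9.83, 9.85 and 9.79 in knockout arrays, against 10.07, 10.17, 10.08, 10.14 and 10.06 in parental arrays. Its groups were just separate, at -0.23 ± 0.06, with a 95% interval of -0.35 to -0.11, above the median of the list although it was among the brightest genes. RPUSD4, a pseudouridine synthase of mitochondrial RNA, was at 0.01 ± 0.09 and directly precedes SRPRA in the list. PUS3, a pseudouridine synthase of transfer RNA, was at -0.55 ± 0.09.

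The remaining genes lay close to the median. C2CD2L, a lipid transfer protein between the endoplasmic reticulum and the plasma membrane, had 4.87, 5.17, 4.90, 5.38 and 4.66 in knockout arrays, against 5.56, 5.91, 6.06, 5.90 and 5.85 in parental arrays, a difference of -0.86 ± 0.13. FOXRED1, an assembly factor of respiratory complex I, was at -0.65 ± 0.12. THYN1, the last of the list, had 5.15, 5.43, 5.55, 5.68 and 5.55 in knockout arrays, against 6.01, 6.18, 6.03, 6.31 and 6.47 in parental arrays. Its groups were separate, at -0.73 ± 0.11. The members of the KMT2A complex, whose name-giving gene was not measured, moved both ways, with PSIP1 (-0.70) and RBBP5 (-0.31) lower, WDR5 (0.21) higher, and 4 of 7 not past the test. Each of the 7 was above the median signal, where 31.5% of all genes were called lower and 24.1% higher.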

How the data were processed

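The authors deposited log2 signals for each probe set, already summarised and normalised by the authors, with Affymetrix Expression Console and Partek 6.6 named in the submitters' processing notes. The summarisation method is not given in the sources used here, and the scale was read from the values (1.13 to 13.87). Of 53617 probe sets, 16098 carried 1 gene symbol, all matched by Entrez identifier to the RefSeq table of GRCh38.p14, which also gave gene order. The probe set with the highest mean stood for each of 14884 genes. Differences are knockout minus parental, from lmFit and eBayes of limma 3.58.1 (R 4.3.3) over all genes, two-sided, with no covariate and no filter, Benjamini-Hochberg adjusted and called at 0.05. The number of arrays limits the precision. The script was tested on simulated data. Partners, roles and markers came from general knowledge. Members and lists were chosen with earlier results of these data known. Arrays were printed for the 10 lowest and 5 highest members, those nearest H2AX, the first and last, and CHEK1, ETS1 and DDX6, chosen by name. Of partners, up to 4 per list that passed are named, and DAD1, ZBTB16 and USP28 were chosen after their values were seen. Python 3.11.15 drew the figures.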

Additional observations from a re-analysis of the deposited data

Results flagged for a closer look

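Of 96 groups of 5 arrays (48 genes in 2 groups), 4 held an array far from the other 4 by Dixon's criterion, which chance meets in about 5% of groups. UBASH3B in knockout replicate 4 was at 5.69, above 5.05 to 5.23 in the other knockout arrays, and OAF in the same array was at 5.96, below 6.22 to 6.31. NFRKB in knockout replicate 1 was at 6.64, below the 6.91 of the next lowest knockout array. POU2F3 in parental replicate 3 was at 4.45, below 4.64 to 4.72.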

How the results depend on the processing

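Over 17 refits (quantile normalisation, array centring, no dim genes, an intensity trend, a robust prior, a replicate block, the mean over probe sets, and each array left out), 34 or 35 listed genes were called lower and 0 higher. With dim genes left out the median of the list was -0.81, that of the unlisted genes of the run -0.62 with 13 called lower, and the lowest running median over all measured genes -0.86, against -0.39 with dim genes kept. That filter keeps a gene by its higher group mean, so 4 listed and 3 unlisted genes passed through the parental arrays alone, and the lower medians are in part built in. Over only the members above the median signal, a choice made after seeing the data, the median was -0.78, and over every gene of the run -0.19. A window of 11 genes gave a lowest running median of -0.76. With an array left out the median of the list ran from -0.71 to -0.66 and that of the unlisted genes from -0.119 to -0.086. Of all genes, 5108 passed the test, and 418 with an absolute difference of at least 1. With the replicate number as a block, the median stayed at -0.67 with 35 called lower. The deviations of the 2 arrays numbered 1 correlated at 0.199, above the highest value with another number (0.065). For replicates 2 to 5 the same-numbered arrays correlated at -0.01 to 0.05, each under the highest value with another number. SMC4 did not pass with the block, without knockout replicate 2 or without parental replicate 1, nor APLP1 without parental replicate 3 or 4. HYOU1 was at -1.95 over the mean of its probe sets. Dim signals and the number of arrays limit what can be seen.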

Other observations

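Genes of the same run that the list left out, chosen here after their values were seen, held differences of like size. TLCD5 was at 5.86 in knockout and 6.98 in parental arrays (group means, n = 5 each), a difference of -1.12, and TMEM218 was at -1.07. The transcription factor genes ZBTB44 and FLI1 were at -0.95 and -0.83, with FLI1 under the median signal. CLMP, an adhesion protein of the tight junction, was at 9.57 in knockout and 10.19 in parental arrays (-0.62). BACE1, a protease that cuts amyloid precursor proteins, was at -0.59 and its antisense gene BACE1-AS at -0.68. Whether the probe sets of this overlapping pair are specific to a strand is not given in the sources used here.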
